A study of Mus musculus with 199 samples.

Results

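The genes described here are those for the protein components of the cytosolic ribosome. They were taken from the table by name, as protein-coding genes whose symbols follow the Rpl and Rps pattern, together with the acidic stalk genes Rplp0, Rplp1 and Rplp2 and with Rpsa. Pseudogene copies, the Rps6 kinases and Rps27a were left out by that rule. It found 85 genes among the 31581 of the table, of which 21765 are protein-coding: 43 for the large subunit, 29 for the small subunit, 3 for the stalk, 9 variant members and Rpsa. The variant members are paralogs of standard subunits together with Rps19bp1, which the name pattern includes although its product binds a subunit and is not one. Rpsa is described apart from the other 84.

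The libraries come from mouse small-cell lung cancer cells, grown as spheroids in culture or as liver colonies, and from a pre-cancerous line. KP1 cells, an explanted small-cell lung cancer labelled Rb1-/-Trp53-/-, gave 28 libraries of 10 captured cells and 20 pool libraries from spheroids, 33 and 35 from nude liver colonies, and 31 and 24 from F1 liver colonies. Nude hosts are immunocompromised, since nude mice lack most T cells, and F1 hosts are immunocompetent. RPC cells, explanted and labelled Rb1-/-Trp53-/-p130-/+Crebbp-/-, gave 24 libraries of 10 cells from spheroids. All these lines share the loss of Rb1 and Trp53, also the KP1 controls, and bulk spheroid RNA was sequenced once each for KP1, KP2 (with Ptch1+/lacz), KP3 (with Axin2+/lacz) and KP5 (with BAT-GAL). The pool libraries are labelled as pool-and-split controls, that is, splits of pooled material, and the labels do not say how many pools were split, so their p-values measure the spread between splits and need not cover that between colonies or cultures. KP1 and RPC are each a single line, and the labels give no age, host animal, colony or culture for any library. A p-value therefore measures the spread between these libraries, which may be technical. In RNA from several cells, fewer cells of a type and less RNA per cell cannot be told apart.

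A ribosome joins a small subunit, which reads the messenger RNA, to a large subunit, which forms the peptide bond, and each standard ribosomal protein is present as a single copy per ribosome apart from the stalk proteins. The genes are transcribed from promoters that seldom hold a TATA box, and their messengers begin with a pyrimidine tract, the 5' terminal oligopyrimidine or TOP motif, through which mTOR signalling controls their translation. Growing and dividing cells make ribosomes at a high rate, and MYC proteins and RNA polymerase I factors are known drivers of that programme. Rpsa encodes the small-subunit protein uS2, which is also known as the laminin receptor precursor.

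Promoter sequences were available from RefSeq (GRCm38.p6) for 66 of the 85 genes. Stretches of 125 bases, from 100 bases before the annotated start through the first 25 transcribed bases, are shown for 4 genes that the results below return to. They are Rpsa and Rps15, which were higher in nude liver colonies than in spheroids, and Rps18 and Rps23, which were lower there. Capitals mark CCGGAA, the core bound by GABP and other ETS factors, on either strand (TTCCGG on the strand shown). They lie at chr9:120127666-120127790 (plus strand) for Rpsa, chr10:80292331-80292455 (plus strand) for Rps15, chr17:33955641-33955765 (minus strand) for Rps18 and chr13:90923022-90923146 (plus strand) for Rps23.
Rpsa: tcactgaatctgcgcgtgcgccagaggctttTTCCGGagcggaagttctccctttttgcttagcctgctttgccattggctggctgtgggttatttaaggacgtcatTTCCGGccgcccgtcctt
Rps15: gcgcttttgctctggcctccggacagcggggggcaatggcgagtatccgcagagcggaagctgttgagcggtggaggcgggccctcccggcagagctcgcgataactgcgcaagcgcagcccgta
Rps18: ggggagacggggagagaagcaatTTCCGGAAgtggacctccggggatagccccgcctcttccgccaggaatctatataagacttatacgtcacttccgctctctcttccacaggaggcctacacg
Rps23: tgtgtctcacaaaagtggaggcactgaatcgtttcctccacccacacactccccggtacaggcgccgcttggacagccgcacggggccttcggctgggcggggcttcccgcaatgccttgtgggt

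Rpsa holds the core at 69 bases before the start and again 8 bases into the transcript, while the stretches of Rps15 and Rps23 hold none. In Rps18 the capitals are a palindrome in which the core overlaps itself on both strands. Over the full 300 bases, from 250 before the start to 50 after it, CCGGAA was found on either strand in 33 of 66 members and in 15.2% of 27025 promoters of all genes. GGGCGG, the Sp1 core, was found in 60.6% of members and 35.9% of all promoters. AAGATGG, the YY1 core, was in 13.6% against 6.48%, CACGTG, the E-box bound by MYC, in 7.58% against 7.24%, and TATAAA, the TATA box, in 9.09% against 14.2%. A TOP-like start, searched on the transcribed strand alone as a C followed by at least 4 C or T within 10 bases of the annotated start, was found in 33 of 66 members and 26.5% of all promoters. The motifs were searched apart from each other, so that matches can overlap, and a match describes letters, not binding.

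The libraries differed in depth and in added spike-in RNA (ERCC transcripts, synthetic RNA added in a known amount). Gene counts per library ran from 718208 to 7557773 in the amplified libraries and from 17266200 to 42447973 in bulk. The median ERCC share was 0.00465% in spheroid 10-cell libraries, 0.969% in nude liver, 2.16% in F1 liver and 0.333% in RPC, and it reached 31.8% in 1 nude liver library. In pools the medians differed more, with 0.00265% in spheroid, 5.94% in nude liver and 13.2% in F1 liver. The highest shares there were 1.78%, 31.2% and 20.7%. Levels are given in CPM, a gene's counts scaled by the library's total gene counts without ERCC. Neuroendocrine markers, which define these tumour cells, were present in every group, with a median summed level of 1723 CPM in spheroid, 1057 CPM in nude liver, 1292 CPM in F1 liver and 1137 CPM in RPC 10-cell libraries.

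Ribosomal protein messengers made up a large share of the counts in libraries of 10 cells and a far smaller share in bulk. The 84 genes without Rpsa summed to a median of 26.5% of gene counts in KP1 spheroid 10-cell libraries (10.1% to 36.3%), 24.6% in nude liver (15.5% to 28.8%), 26.9% in F1 liver (18.2% to 37.1%) and 24.4% in RPC (13.9% to 40.7%). Pools were at 19.2% in spheroid, 22.0% in nude liver and 19.2% in F1 liver. The 4 bulk libraries held 2.15% to 3.00%. All amplified libraries were above every bulk library, and the 10-cell groups overlapped each other over most of their range.

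**Figure D1:**
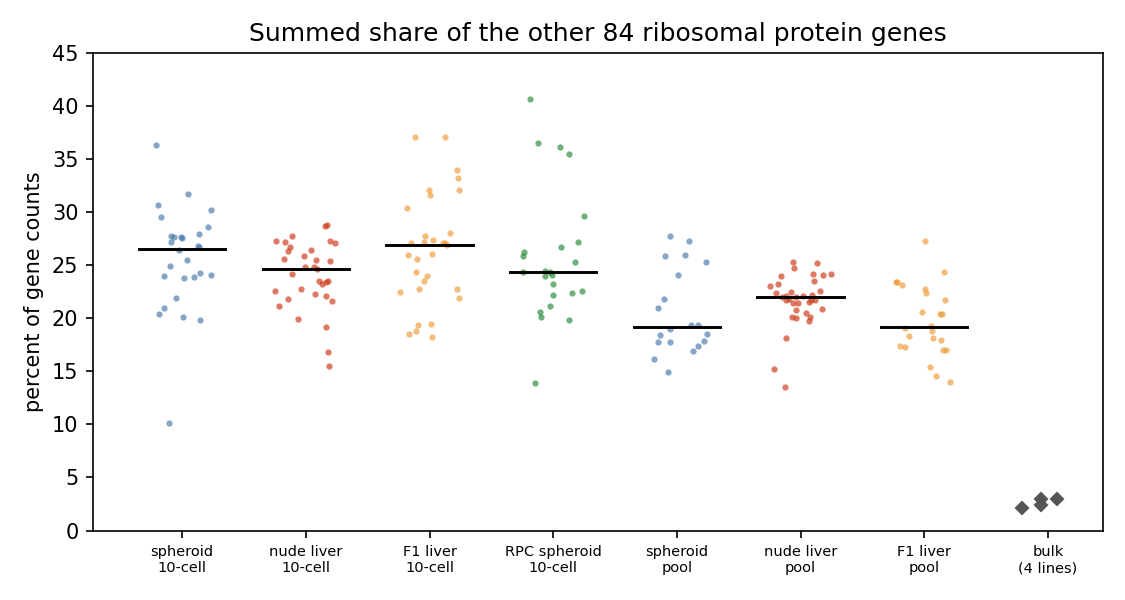
Each point is a library and its height is the percent of gene counts that fell on the 84 ribosomal protein genes without Rpsa, by group; black lines are group medians and diamonds are the 4 bulk lines. The 10-cell medians lie between 24.4% and 26.9% and overlap widely, pools lie between 19.2% and 22.0%, and bulk lies at or below 3.00%.

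The bulk libraries were prepared by another protocol, with no capture or poly(A) amplification, so protocol differs between bulk and captures, and for KP2, KP3 and KP5 the line differs as well. For KP1 itself, 78 of the 81 members with bulk counts had a higher median in spheroid 10-cell libraries than in KP1 bulk, with a median ratio of 12.0 and a range from 0.102 to 43.8. Rplp0, the base of the stalk, had a ratio of 1.98, whereas Rpl41, the smallest ribosomal protein, had 24.1. For some members the own share of the counts on a gene and its pseudogene copies also differed. In KP1 bulk and spheroid 10-cell libraries it was 28.8% and 98.7% for Rpl10, 30.2% and 2.03% for Rpl12, and 99.9% and 99.7% for Rpl13a. Its part in the ratios was not tested. Per kilobase of coding sequence (RPKM, with 1 library per line and no test), the highest bulk levels were those of Rpl41 with 3813 in KP1, 5707 in KP2, 3979 in KP3 and 7853 in KP5. All counts of a gene were divided by its coding length alone, 75 bases for Rpl41 and 951 for Rplp0. The ranking therefore favours short coding sequences. Next were Rplp0 with 1352, 1529, 1461 and 1442 RPKM, and Rplp1, its acidic partner, with 1282, 1572, 1209 and 1858 RPKM in the same order. The lowest were Rpl10l and Rpl39l, whose expression is known from testis, and Rps12, all listed at 0 in the 4 lines. Rps12 encodes a standard subunit, and its reads are taken up below. Rpsa held rank 31 of 85 by this measure.

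Rpsa was higher in liver colonies than in spheroids, and in 10-cell libraries of both hosts it had the largest fold change among the members. Its level in 10-cell libraries ran from 2431 to 20560 CPM with a median of 5505 in KP1 spheroids, from 12641 to 129814 with a median of 42520 in nude liver, and from 7889 to 46197 with a median of 14078 in F1 liver. Of 33 nude liver libraries, 30 were above every spheroid library, as were 8 of 31 F1 liver libraries, so the groups overlapped in both cases. In edgeR's quasi-likelihood test the log2 fold change was 3.06 (SE 0.24, adjusted p = 2.99e-16) for nude liver over spheroid and 1.88 (SE 0.19, adjusted p = 5.40e-12) for F1 liver over spheroid. F1 liver was lower than nude liver, with a log2 fold change of -1.15 (SE 0.23, adjusted p = 1.20e-04), and 10 of 31 F1 libraries were below every nude liver library.

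The pool libraries, which are splits of pooled material, had medians in the same order with less overlap. Rpsa ran from 5234 to 9573 CPM (median 6230) in spheroid pools, from 22019 to 110640 (median 50139) in nude liver pools and from 11268 to 32168 (median 19076) in F1 liver pools. All 35 nude and all 24 F1 liver pools were above every spheroid pool, while the liver pools overlapped each other. The log2 fold changes were 3.30 (SE 0.18, adjusted p = 5.06e-23) for nude liver over spheroid, 2.12 (SE 0.15, adjusted p = 8.60e-16) for F1 liver over spheroid and -1.13 (SE 0.15, adjusted p = 1.57e-07) for F1 over nude liver. The comparisons of nude and F1 liver with spheroid, and that of RPC, share the KP1 spheroid libraries, and those of F1 liver share its libraries. As a share of all gene counts, Rpsa rose from a median of 0.550% in spheroid to 4.25% in nude liver 10-cell libraries. The 4 bulk libraries had 750 CPM in KP1, 506 in KP2, 656 in KP3 and 971 in KP5, below every amplified library.

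**Figure D2:**
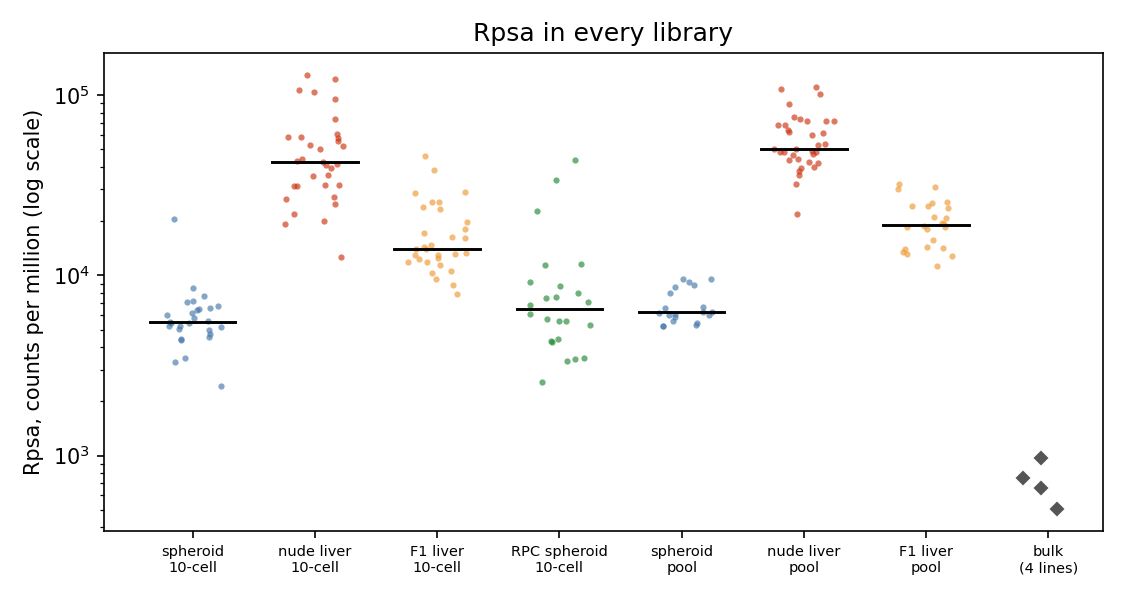
Rpsa level in CPM on a log axis, with a point per library, black lines at group medians and diamonds for the bulk lines. Nude liver libraries are highest, F1 liver libraries lie between nude liver and spheroid, and the RPC group overlaps the KP1 spheroid group except for 3 high libraries.

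In RPC spheroids Rpsa ran from 2564 to 43688 CPM with a median of 6488, close to the KP1 median, and the groups overlapped. RPC libraries 19, 21 and 24, at 43688, 33606 and 22628 CPM, were the 3 above every KP1 library. The edgeR log2 fold change was 0.76 (SE 0.29, adjusted p = 0.0477), and it was 0.01 (adjusted p = 0.982) in limma-voom. The call was also lost against the 9 KP1 libraries with at least 0.1% ERCC (0.44, adjusted p = 0.537). Counts of the pseudogene Rpsa-ps10, a close copy of Rpsa, had a median of 6562 CPM in RPC and 691 CPM in KP1 spheroids. Rpsa's own share of the counts on Rpsa and its 14 matched pseudogenes was 49.2% in RPC, against 89.2% in KP1 spheroid, 96.7% in nude liver and 93.3% in F1 liver 10-cell libraries. With those pseudogenes added, the RPC log2 fold change was 1.5 (adjusted p = 1.47e-05). Rpsa-ps10 also held most of the counts in KP2 bulk, where Rpsa's own share was 35.0%, against 65.3% to 67.3% in the other bulk lines.

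Within groups, Rpsa moved with spike-in share in the liver 10-cell libraries. In nude liver, log2 Rpsa level and ERCC share had Pearson's r of 0.65 and Spearman's rho of 0.67 over 33 libraries (permutation tests, adjusted p = 9.90e-04 for both over 33 relations), and r was 0.57 without the 2 libraries farthest out on ERCC share. Rpsa fell there with the gene total, with r of -0.56 (permutation adjusted p = 0.00519) and rho of -0.74 (adjusted p = 6.60e-04). With the gene total, r was 0.04 in F1 liver 10-cell libraries and -0.16 in nude liver pools (permutation adjusted p = 0.905 and 0.588). Without the 2 farthest libraries these were -0.34 and -0.10. In F1 liver the ERCC relation had r of 0.59 and rho of 0.53 (permutation adjusted p = 0.00519 and 0.0169, r 0.46 without the 2 farthest), and r was 0.66 within the 26 libraries with high Rpl19-ps11, a pseudogene by which the F1 libraries split. In nude liver pools r was 0.33 and in F1 liver pools 0.25 (permutation adjusted p = 0.192 and 0.512). In RPC r was -0.32 and rho -0.41 (permutation adjusted p = 0.382 and 0.179, r -0.59 without the 2 farthest). Among spheroids with at least 0.1% ERCC r was -0.05 in 9 10-cell libraries and -0.27 in 6 pools (exact permutation tests, adjusted p = 0.905 and 0.773). ERCC share also differed between the groups, and its part in the differences between them was not tested. For the summed hepatocyte markers, r was 0.21 in nude and 0.05 in F1 liver 10-cell libraries (permutation adjusted p = 0.511 and 0.894), and in nude liver pools r was 0.35 and rho 0.15 (permutation adjusted p = 0.159 and 0.588). Over the 24 F1 pools r was 0.47 and rho 0.52 (permutation adjusted p = 0.0840 and 0.0508, r 0.57 without the 2 farthest). Within the 19 of these with high Rpl19-ps11 r was 0.57 and rho 0.62 (permutation adjusted p = 0.0508 and 0.0314, r 0.66 without the 2 farthest). The spheroid pools formed 2 sets apart from each other. The 6 with at least 0.1% ERCC had Rpsa at 7974 to 9573 CPM and the other members at 24.1% to 27.8% of counts, and the other 14 had 5234 to 6711 CPM and 14.9% to 21.8%. Within these sets Rpsa and the share of the other members had r of -0.55 and rho of -0.66 in the 6 (exact permutation test, adjusted p = 0.525 and 0.467 over 4 relations) and r of -0.01 and rho of 0.05 in the 14 (permutation adjusted p = 0.982 for both). In the spheroid 10-cell libraries r was 0.16 in the 9 with at least 0.1% ERCC and -0.36 in the other 19 (exact and sampled permutation tests, adjusted p = 0.982 and 0.450). There rho was -0.07 and -0.48 (same tests, adjusted p = 0.982 and 0.315), and r without the 2 farthest was 0.36 and -0.65.

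Across the 195 amplified libraries, after group means were subtracted, the 5 genes most like Rpsa among 7550 were Gm9964 (r 0.62), the pseudogene Rpsa-ps9 (0.62), 1700008O03Rik (0.61), Zfp459 (0.59) and Chek2 (0.59). These coefficients are descriptions over libraries that share their groups and differ in depth. Of the other members, Rpl3 (0.59), Rps15 (0.59) and Rpl8 (0.56) came next, while the median over 81 members was -0.10, near the -0.08 of all genes. Rpl39, Rpl7a and Rpl22l1 were lowest at -0.38 each. The 3 members most like Rpsa within groups were also among those higher in liver colonies.

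Between nude liver colonies and spheroids the other ribosomal protein genes did not move as a block. More members were lower than higher in nude liver: of 81 that could be tested in 10-cell libraries, 9 were higher and 46 lower, where 17.7% of all 7834 genes tested were higher and 16.3% lower. The 3 untested members, Rpl10l, Rpl39l and Rpl3l, had a median of 0 in every amplified group. With library totals as the scale in place of edgeR's TMM factors, 13 were higher and 35 lower (18.6% and 11.8% of all genes). Under all 5 scalings and tools run, 8 members were higher and 28 lower (15.2% and 11.0% of all genes). The median log2 fold change was -0.52 for members and -0.04 for all genes, a difference of -0.48 that ran from -0.90 (against spheroids with at least 0.1% ERCC) to -0.20 (limma-voom) over the alternatives. Members are abundant and measured precisely, with a median standard error of 0.17 against 0.57 for all genes tested, so small changes pass the threshold more often among them.

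Among members higher in nude liver with at least a 2-fold change, and apart from Rpsa, Rpl3, Rpl8 and Rps15 had the smallest adjusted p. Rps15, a protein of the small-subunit head, ran from 920 to 8433 CPM (median 4581) in spheroid and from 5292 to 30422 (median 12796) in nude liver 10-cell libraries, where 27 of 33 were above every spheroid library (log2 fold change 1.4, SE 0.20, adjusted p = 4.80e-08). Rpl3, which lies near the peptidyl transferase centre, went from a median of 2548 CPM (1787 to 4891) to 6225 CPM (3317 to 12753), with a log2 fold change of 1.21 (SE 0.15, adjusted p = 8.94e-10). Rpl8, also near that centre, had medians of 2751 CPM (1599 to 5119) and 5928 CPM (3220 to 10697), with a log2 fold change of 1.04 (SE 0.15, adjusted p = 2.37e-08). In all 3 the groups overlapped, with most nude liver libraries above the spheroid range. Rpl10a, of the L1 stalk, Rps4x, the X-linked small-subunit gene, Rpl41 and the variant Rpl7l1 were also among the 8 that were called higher under every scaling.

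Lower in nude liver were Rpl23a, Rpl23 and Rps23, first by adjusted p among those with at least a 2-fold change. Rpl23a, at the exit of the peptide tunnel, ran from 1821 to 12709 CPM (median 7936) in spheroid and from 338 to 4880 (median 3118) in nude liver 10-cell libraries (log2 fold change -1.71, SE 0.18, adjusted p = 6.13e-12). Rps23, which sits at the decoding centre, had medians of 2729 CPM (771 to 3722) and 1221 CPM (173 to 2029), with a log2 fold change of -1.44 (SE 0.17, adjusted p = 2.21e-10). Rpl23, an interface protein of the large subunit that binds Mdm2, had medians of 5062 CPM (1776 to 8337) and 2059 CPM (85.5 to 3660), with a log2 fold change of -1.68 (SE 0.20, adjusted p = 4.41e-10). The ranges overlapped, with 7 nude liver libraries below every spheroid library for Rpl23a and Rps23 and 12 for Rpl23. Large-subunit genes were higher in 5 and lower in 23 of 43 and small-subunit genes higher in 2 and lower in 18 of 29. Of all genes, 17.7% were higher and 16.3% lower, and the difference between the subunits was not tested. Of the members with a promoter sequence, here with Rpsa, CCGGAA was present in 3 of 7 higher, 22 of 36 lower and 7 of 20 uncalled genes. In pools it was present in 3 of 9 higher, 8 of 15 lower and 21 of 39 uncalled genes. Rpsa holds the core and is among the higher genes in both kinds of library. No difference between these classes was tested.

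**Figure D3:**
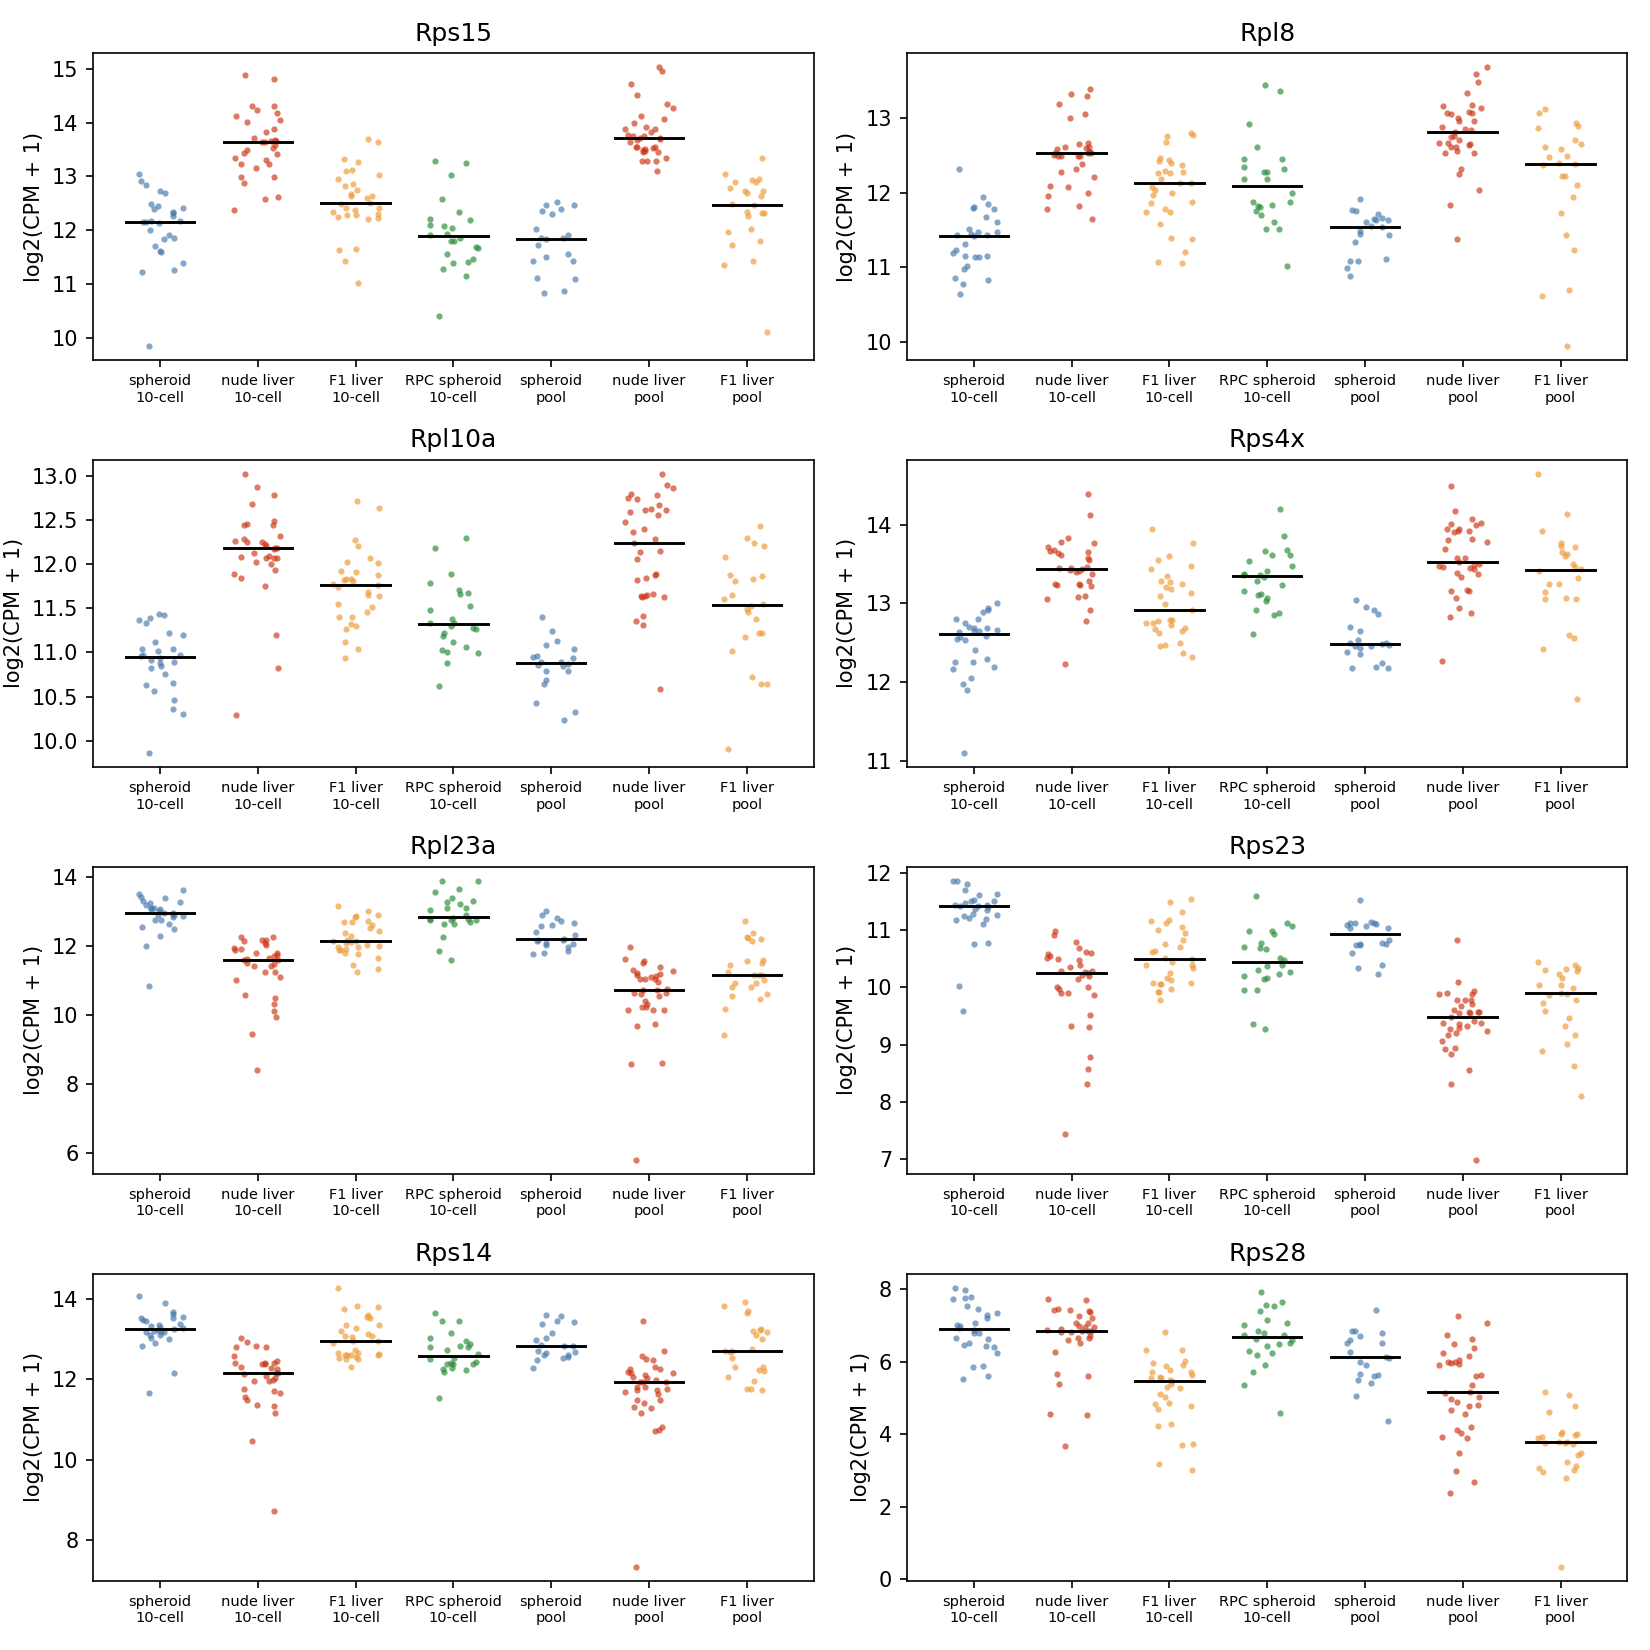
Levels of 8 members as log2(CPM + 1) in every amplified library, with black lines at group medians. Rps15, Rpl8, Rpl10a and Rps4x are highest in nude liver, Rpl23a, Rps23 and Rps14 are lowest there, and Rps28 is lowest in F1 liver.

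The pools gave a more even split. Of 81 members, 16 were higher and 19 lower in nude liver pools than in spheroid pools, where 16.5% and 9.13% of all 8010 genes were, with 13 higher and 29 lower with library totals (14.0% and 11.8% of all genes). Under all 5 scalings 13 were higher and 19 lower (12.4% and 8.84% of all genes). The member median was -0.17 against 0.16 for all genes, but the sign of the difference (-0.33) was not kept: it was -1.07 against spheroid pools with at least 0.1% ERCC, -0.02 in DESeq2 and 0.96 in limma-voom. Rps15 ran from 1828 to 5859 CPM (median 3678) in spheroid and from 8830 to 33621 (median 13413) in nude liver pools, with no overlap (log2 fold change 2.21, SE 0.19, adjusted p = 3.33e-14). Rps15 and Rpsa were the members whose groups did not overlap here, where 0.562% of all genes did not. Rpl8 and Rpl10a were again higher (log2 fold changes 1.59, SE 0.15, adjusted p = 2.79e-13, and 1.60, SE 0.17, adjusted p = 8.81e-12). Rpl8 was above every spheroid pool in 33 and Rpl10a in 32 of 35 pools. Rps23 (-1.22, SE 0.16, adjusted p = 1.08e-08), Rpl23a (-1.41, SE 0.20, adjusted p = 1.19e-07) and Rps18, a protein of the small-subunit head (-1.05, SE 0.16, adjusted p = 2.81e-07), were each below every spheroid pool in 34 of 35 nude liver pools.

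Liver RNA differed along with these members. The summed level of 15 hepatocyte markers ran from 33.8 to 4638 CPM (median 986) in nude liver and from 0 to 83.6 CPM (median 1.11) in spheroid 10-cell libraries, where Alb, Apoa1 and 8 others were at 0 in all libraries. The 5 erythrocyte markers had medians of 551 CPM and 0 CPM. In pools the hepatocyte markers ran from 177 to 4167 CPM (median 1191) in nude liver and from 0 to 62.0 CPM (median 0.561) in spheroids. The 8 endothelial and stellate markers had medians of 30.8 and 0.236 CPM in 10-cell libraries and 12.4 and 0.509 CPM in pools. Neuroendocrine markers had medians of 857 CPM in nude liver pools and 1945 CPM in spheroid pools. With the hepatocyte level as a covariate, which itself separates the groups, edgeR called 1 member higher and 0 lower in 10-cell libraries (0.919% and 0.728% of all genes) and 1 and 0 in pools (0.512% and 0.0624%), with 5 higher and 8 lower, and 14 and 0, at an unadjusted p under 0.05. The member median went from -0.52 to -0.20 in 10-cell libraries and from -0.17 to 0.24 in pools. Rpsa kept its call in both. Against the spheroid pools with at least 0.1% ERCC alone, 5 members were higher and 26 lower in nude liver pools (5.96% and 2.21% of all genes), and against those with less ERCC 28 were higher and 13 lower (14.8% and 7.11%).

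Between F1 liver colonies and spheroids most members were not called, and whether more of them were higher or lower depended on scaling. In 10-cell libraries 21 of 81 members were higher and 5 lower, where 7.73% and 4.91% of all 7309 genes were. With library totals 16 were higher and 16 lower (3.57% and 6.03% of all genes). Under all 5 scalings 16 were higher and 5 lower (2.94% and 4.15% of all genes). The member median was 0.30 and that of all genes 0.22, a difference of 0.08 that ran from -0.52 (F1 libraries with low Rpl19-ps11, a pseudogene described below) to 0.69 in limma-voom and 0.84 with replicate numbers as a block.

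Rpl10a and Rpl3 are given here by a rule of at least a 2-fold change and the smallest adjusted p. Rpl10a ran from 931 to 2778 CPM (median 1967) in spheroid and from 1958 to 6688 (median 3465) in F1 liver 10-cell libraries, 23 of 31 of which were above the spheroid range (log2 fold change 1.13, SE 0.16, adjusted p = 2.21e-07). Rpl3 had a median of 4238 CPM (2163 to 6898) in F1 liver, with a log2 fold change of 1.01 (SE 0.16, adjusted p = 2.29e-06), and 7 libraries above every spheroid library. Rpl8 (1.00, SE 0.15, adjusted p = 1.32e-06) rounds to that fold but was below it. The ranges of these genes overlapped.

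The 5 members lower in F1 liver all belonged to the 27 shortest by coding length. Rps28, a small protein near the messenger's exit from the small subunit, ran from 44.6 to 263 CPM (median 118) in spheroid and from 7.14 to 112 (median 43.6) in F1 liver, with 17 of 31 libraries below every spheroid library (log2 fold change -1.46, SE 0.27, adjusted p = 9.41e-05). Rps29, a zinc-binding small-subunit protein, had medians of 394 CPM (134 to 1025) and 170 CPM (44.0 to 477), with a log2 fold change of -1.06 (SE 0.25, adjusted p = 0.00209). Rpl39, which lines the peptide tunnel, Rps27 and its paralog Rps27l were the others called lower, in every scaling. All ranges overlapped.

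In F1 liver pools 23 of 81 members were higher and 5 lower than in spheroid pools, where 8.94% and 2.65% of all 7249 genes were. With library totals the split turned to 7 higher and 21 lower (3.79% and 5.48% of all genes), and 82.1% of calls being higher became 25.0%. Under all 5 scalings 7 were higher and 5 lower (3.15% and 2.62% of all genes), and the member median of 0.30 was below the 0.46 of all genes, whereas in limma-voom it was above it by 1.67. Rps4x ran from 4640 to 8452 CPM (median 5707) in spheroid and from 3524 to 25650 (median 10991) in F1 liver pools (log2 fold change 1.55, SE 0.19, adjusted p = 3.97e-08), and 20 of 24 pools were above the spheroid range. Rpl8 and Rpl10a had log2 fold changes of 1.38 (SE 0.18, adjusted p = 1.56e-07) and 1.33 (SE 0.19, adjusted p = 6.96e-07). Rps29 (-1.55, SE 0.37, adjusted p = 0.00268), Rps27 (-1.19, SE 0.30, adjusted p = 0.00448) and Rpl39 (-1.03, SE 0.27, adjusted p = 0.00642) were lower. Each of the 6 overlapped between groups, and Rpsa was the only member that did not overlap here, where 0.0828% of all genes did not.

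The F1 libraries were of 2 kinds by the level of the pseudogene Rpl19-ps11, with at least 120 CPM in 26 of 31 10-cell libraries and 19 of 24 pools. This pseudogene is named after the member Rpl19, so the split is not independent of the members. Against spheroids, the 26 gave 35 members higher and 5 lower in 10-cell libraries (9.95% and 4.98% of all genes). The other 5 gave 0 higher and 21 lower in edgeR (2.14% and 1.51%), with 1 and 44 at an unadjusted p under 0.05. In pools the 19 gave 29 higher and 6 lower (10.5% and 3.46%) and the other 5 gave 9 and 6 (8.26% and 10.6%). Against the 9 spheroid 10-cell libraries with at least 0.1% ERCC, 2 members were higher and 2 lower (1.39% and 0.562%). Against the 6 such spheroid pools 0 were called in either direction (0.131% in each), with 6 higher and 20 lower at an unadjusted p under 0.05. Hepatocyte markers summed to a median of 188 CPM (0 to 2288) in F1 liver 10-cell libraries, and the erythrocyte markers to 1622 CPM (0 to 32920). In F1 pools these medians were 190 CPM (0 to 936) and 334 CPM (1.01 to 20603). Their part in the F1 results was not tested beyond the covariate, with which 16 members were higher and 1 lower in 10-cell libraries (4.43% and 2.22% of all genes) and 24 and 1 in pools (8.50% and 2.98%).

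Compared with nude liver, F1 liver 10-cell libraries had more members higher than lower under all 5 scalings, while in pools library totals turned that order. In 10-cell libraries 59 of 81 were higher and 3 lower, where 11.2% and 7.98% of all 7064 genes were. With library totals 28 were higher and 11 lower (3.61% and 12.2% of all genes), and under all 5 scalings 28 were higher and 3 lower (2.86% and 6.75% of all genes). The member median of 0.73 exceeded that of all genes (0.26) by 0.48, and by 0.07 (F1 libraries with low Rpl19-ps11) to 0.90 (replicate block) over the alternatives. By subunit, 30 of 43 large-subunit and 22 of 29 small-subunit genes were higher, along with all 3 stalk genes.

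Rps14, a protein of the small-subunit platform, ran from 420 to 8334 CPM (median 4553) in nude liver and from 5016 to 19780 (median 7885) in F1 liver 10-cell libraries. Its log2 fold change was 1.54 (SE 0.18, adjusted p = 1.31e-09), and 15 of 31 F1 libraries were above every nude liver library. Rpl23a had a median of 4531 CPM (2455 to 9126) in F1 liver against 3118 CPM, with a log2 fold change of 1.32 (SE 0.18, adjusted p = 6.29e-08). In the other direction Rps28 was lower in F1 liver (-1.02, SE 0.28, adjusted p = 0.00546), and Rps15 and Rps29 were the other members called lower. The ranges of all these genes overlapped. The 5 F1 libraries with little Rpl19-ps11 alone gave 1 member higher and 5 lower against nude liver (1.45% and 0.623% of all genes), and the other 26 gave 61 and 1 (10.7% and 7.32%). The median of the summed erythrocyte markers was higher in F1 than in nude liver in 10-cell libraries (1622 against 551 CPM) and lower in pools (334 against 1259 CPM), and its part in these results was not tested.

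In pools 32 of 81 members were higher and 6 lower in F1 than in nude liver, where 8.20% and 3.79% of all 6010 genes were, and with library totals 9 were higher and 18 lower (2.81% and 6.31% of all genes). Under all 5 scalings 9 were higher and 6 lower (1.43% and 2.65% of all genes). The share of calls that were higher thus moved from 84.2% to 33.3%, while the member median minus that of all genes was 0.21 and ran from -0.03 (hepatocyte covariate) to 0.87 (replicate block) over the alternatives. Rps3, of the messenger's entry channel, ran from 226 to 2832 CPM (median 1329) in nude and from 387 to 8901 (median 3344) in F1 liver pools, with a log2 fold change of 1.80 (SE 0.21, adjusted p = 3.24e-09). Rps14 (1.48, SE 0.22, adjusted p = 1.43e-06) and Rplp0 (1.18, SE 0.19, adjusted p = 8.77e-06) were also higher. Rps15 was lower, from a median of 13413 CPM (8830 to 33621) to 5705 CPM (1095 to 10371), with 23 of 24 F1 pools below every nude liver pool (-1.05, SE 0.16, adjusted p = 3.63e-06), as were Rps29 (-1.14, SE 0.31, adjusted p = 0.0108) and Rps28 (-1.29, SE 0.41, adjusted p = 0.0278). No member, and 0% of all genes tested, was free of overlap between these groups. The hepatocyte covariate left 4 higher and 2 lower in pools (2.55% and 1.05% of all genes) and 52 and 1 in 10-cell libraries (7.77% and 4.73%).

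Part of the calls were shared between 10-cell libraries and the splits of pooled material, whose cells the labels do not place in other colonies or cultures than the captures. Of 81 members, 7 were higher and 18 lower in nude liver than in spheroid in both kinds of library, 16 and 4 in F1 liver against spheroid, and 31 and 3 in F1 against nude liver. The shares of all genes called in both were 11.3% and 5.57%, 3.47% and 0.764%, and 3.55% and 1.58%. In each case 0 were called in opposite directions. The sign of the fold change was shared by 62, 69 and 66 of the 81 members. Spearman's rho of the fold changes across members, which are not independent replicates, was 0.92, 0.85 and 0.65. Rpl10a, Rpl3, Rpl41, Rpl8, Rps15 and Rps4x were among those higher in nude liver in both. The liver and spheroid groups of the first 2 comparisons share their spheroid libraries, and Rps4x, for instance, had log2 fold changes of 0.86 and 0.87 in 10-cell libraries for nude and F1 liver.

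**Figure D4:**
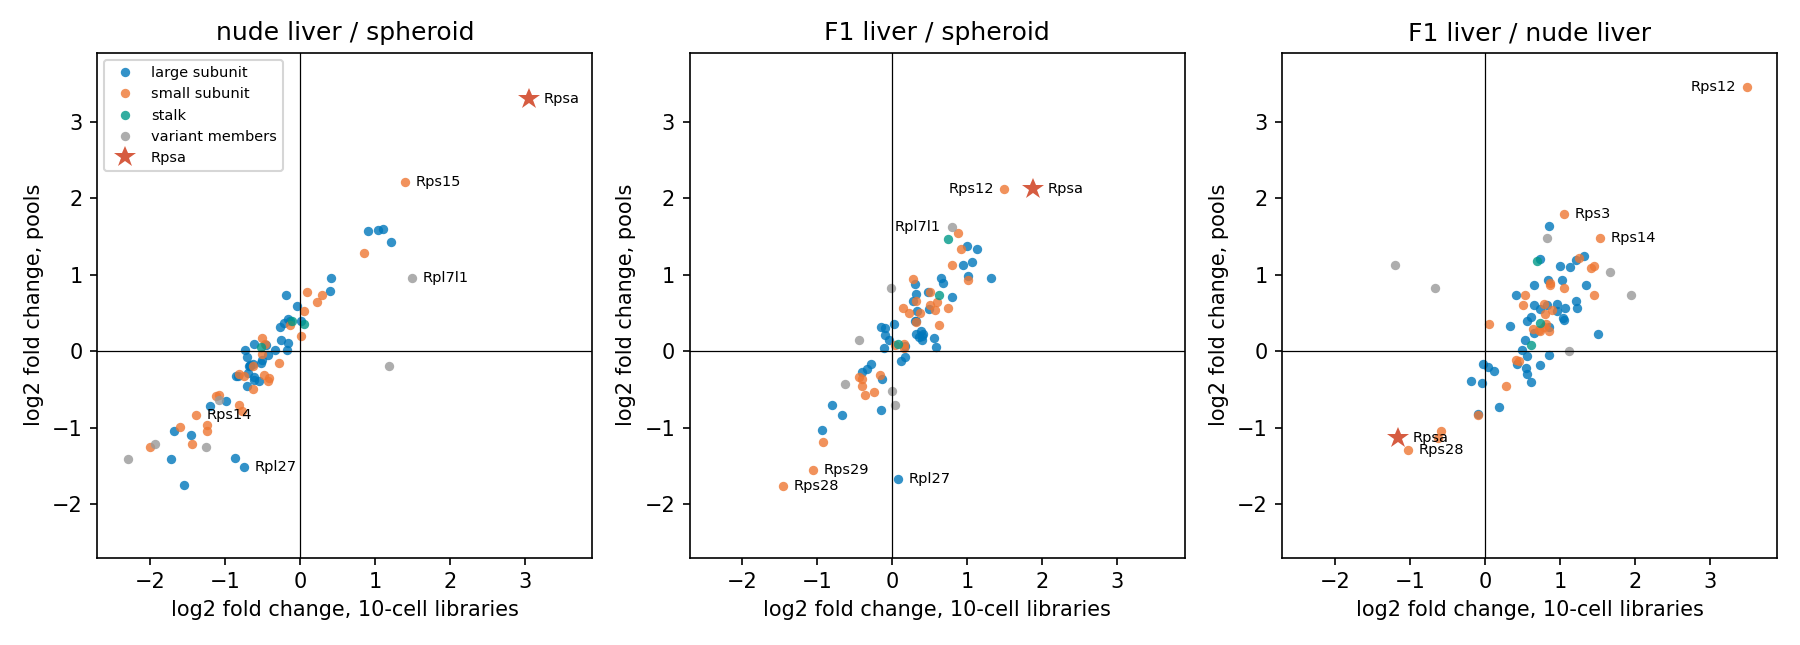
For each ribosomal protein gene, the log2 fold change in 10-cell libraries (horizontal) against that in pools (vertical) for nude liver over spheroid, F1 liver over spheroid and F1 over nude liver, coloured by subunit, with a star for Rpsa and a few genes labelled. Rpsa lies furthest out in the first panel, at 3.06 and 3.30, and Rps12 does so in the last, at 3.49 and 3.45.

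Between RPC and KP1 spheroids, both grown in culture, a few members stood out and most were uncalled. Of 81 members 8 were higher and 20 lower in RPC, where 10.3% and 11.6% of all 8600 genes were, and with library totals 18 were higher and 22 lower (13.0% and 7.73% of all genes). Under all 5 scalings 7 were higher and 16 lower (9.21% and 7.07% of all genes). The member median was -0.26 against 0.01 for all genes, a difference of -0.27 that ran from -0.83 (limma-voom) to -0.12 (against spheroids with less than 0.1% ERCC). Hepatocyte markers summed to a median of 4.97 CPM in RPC and 1.11 CPM in KP1, and the erythrocyte markers to 0 in both.

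Rps3a1 was the single member without overlap between RPC and KP1, as were 0.756% of all genes tested. It ran from 662 to 1718 CPM (median 1085) in KP1 and from 3092 to 7733 (median 4959) in RPC, so all 24 RPC libraries were above every KP1 library (log2 fold change 2.06, SE 0.15, adjusted p = 2.18e-18). Its near-identical copies went the other way. Rps3a3 had a median of 3195 CPM in KP1 and 1.15 CPM in RPC, and Rps3a1 held 17.9% of the counts on itself and its 4 matched pseudogenes in KP1 and 99.9% in RPC. In the sum over all of them the direction reversed, with a log2 fold change of -0.39 (adjusted p = 0.0469). The own share was 12.4% to 13.2% in the 4 bulk lines.

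Rps2, at the messenger's entry, was also higher and also had a larger own share in RPC, but its groups overlapped. It ran from 145 to 1996 CPM (median 1006) in KP1 and from 1941 to 4586 (median 2890) in RPC, with 23 of 24 RPC libraries above every KP1 library (log2 fold change 1.35, SE 0.20, adjusted p = 2.01e-07). Its own share was 42.9% in KP1 and 99.4% in RPC, and the summed family had a log2 fold change of 0.23 (adjusted p = 0.354).

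Rps26, at the messenger's exit channel, ran from 768 to 5425 CPM (median 2479) in KP1 and from 580 to 1378 (median 962) in RPC, an overlap with 5 RPC libraries below every KP1 library (-1.69, SE 0.22, adjusted p = 3.89e-09). Rpl35a had medians of 2796 CPM (1046 to 4351) and 990 CPM (382 to 1794), with a log2 fold change of -1.56 (SE 0.21, adjusted p = 1.30e-08). Its own share of the family was 99.7% in KP1, 46.9% in RPC and 51.4% in KP5 bulk, and the family sum had a log2 fold change of -0.43 (adjusted p = 0.112). Rps27l, the paralog of Rps27 known as a p53 target, was lower in RPC, with medians of 920 and 519 CPM (-1.07, SE 0.23, adjusted p = 2.74e-04). Against the 9 KP1 libraries with at least 0.1% ERCC, 4 members were higher and 26 lower (10.2% and 7.78% of all genes), and against the other 19, 8 were higher and 12 lower (9.49% and 8.94%).

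Of the 6 tested variant members, 4 were lower and 2 higher in nude liver than in spheroid 10-cell libraries, where 56.8% and 11.1% of the 81 members and 16.3% and 17.7% of all genes were. Rps27l ran from 346 to 1683 CPM (median 920) in spheroid, from 0 to 626 (median 214) in nude liver and from 197 to 1111 (median 440) in F1 liver 10-cell libraries. Nude liver was lower than spheroid (-2.29, SE 0.30, adjusted p = 3.17e-09) and F1 liver was lower than spheroid by less (-0.63, SE 0.19, adjusted p = 0.0214). F1 liver was higher than nude liver (1.67, SE 0.30, adjusted p = 2.03e-05). Rpl36al, the intronless paralog of Rpl36a, had medians of 1552 CPM in spheroid, 494 CPM in nude and 900 CPM in F1 liver, and was lower in nude liver than in spheroid (-1.93, SE 0.25, adjusted p = 4.50e-09). Rpl22l1, the paralog of Rpl22, had medians of 1236, 647 and 762 CPM and was lower in nude liver 10-cell libraries by 1.25 on the log2 scale (SE 0.21, adjusted p = 1.57e-06). Rps27rt had medians of 79.9, 49.8 and 57.8 CPM, and was lower in nude liver (-1.08, SE 0.30, adjusted p = 0.00279).

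Rpl7l1, a biogenesis factor related to Rpl7, was among the variants higher in nude liver, with medians of 12.3 CPM in spheroid and 47.7 CPM in nude liver 10-cell libraries (1.5, SE 0.45, adjusted p = 0.00666). In pools its log2 fold change was 0.96 (SE 0.51, adjusted p = 0.166). It was also one of the members with a lower level in captures than in KP1 bulk, where it was at 120 CPM. Rps19bp1, a regulator of Sirt1, had medians of 64.0, 81.8 and 43.1 CPM in the 3 KP1 groups and a log2 fold change of 1.19 (SE 0.45, adjusted p = 0.0314) in nude liver over spheroid 10-cell libraries and of -0.20 (adjusted p = 0.859) in pools. In RPC, Rps27l, Rpl36al (-0.81, SE 0.26, adjusted p = 0.0165), Rpl22l1 (-0.97, SE 0.19, adjusted p = 8.84e-05) and Rps19bp1 (-1.25, SE 0.40, adjusted p = 0.0171) were lower than in KP1.

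Reads of several members are shared with near-identical pseudogenes, and 755 pseudogenes matched the coding sequence of 77 members. Rps12 was listed at 0 in all 4 bulk lines, where its family counts of 129 to 269 CPM fell on pseudogenes. In 10-cell libraries its own share had a median of 13.8% in spheroid, 2.12% in nude liver and 22.3% in F1 liver, with own levels of 553, 86.2 and 1279 CPM and family levels of 4446, 4659 and 6236 CPM. Its log2 fold change of 3.49 (SE 0.63, adjusted p = 2.79e-05) in F1 over nude liver belongs to a gene that holds a small part of its family's counts. Rpl12 held 2.03% and Rpl5 6.49% of their families in spheroid 10-cell libraries. The 3 genes are uncertain in every comparison. By contrast Rps15 held 4581 of 4584 CPM, Rps14 9758 of 9761 CPM and Rpl23a 99.7% of their families there, and Rps23 held 41.4% in spheroid and 42.4% in nude liver.

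Within the family, longer genes tended to be higher in F1 liver and RPC. Spearman's rho between coding length and log2 fold change across 81 members was 0.63 for F1 liver over spheroid in pools and 0.49 in 10-cell libraries, 0.49 for RPC over KP1 and 0.48 for F1 over nude liver in pools. The same measure over all genes with a length was 0.08, 0.08, 0.11 and -0.13. For nude liver over spheroid it was 0.26 in 10-cell libraries and 0.22 in pools, against 0.18 and 0.16 over all genes, and for F1 over nude liver 10-cell libraries it was 0.14 against -0.19. In F1 liver over spheroid pools, the 27 shortest members (coding length 75 to 390 bases) had a median log2 fold change of -0.13, with 3 higher and 4 lower. The middle 27 (396 to 552 bases) had 0.23, with 4 higher and 1 lower, and the longest 27 (564 to 1257 bases) had 0.78, with 16 higher and 0 lower. These are descriptions across genes that share libraries. Coding GC percent had a rho of 0.16 in those pools and 0.33 for nude liver over spheroid in 10-cell libraries.

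**Figure D5:**
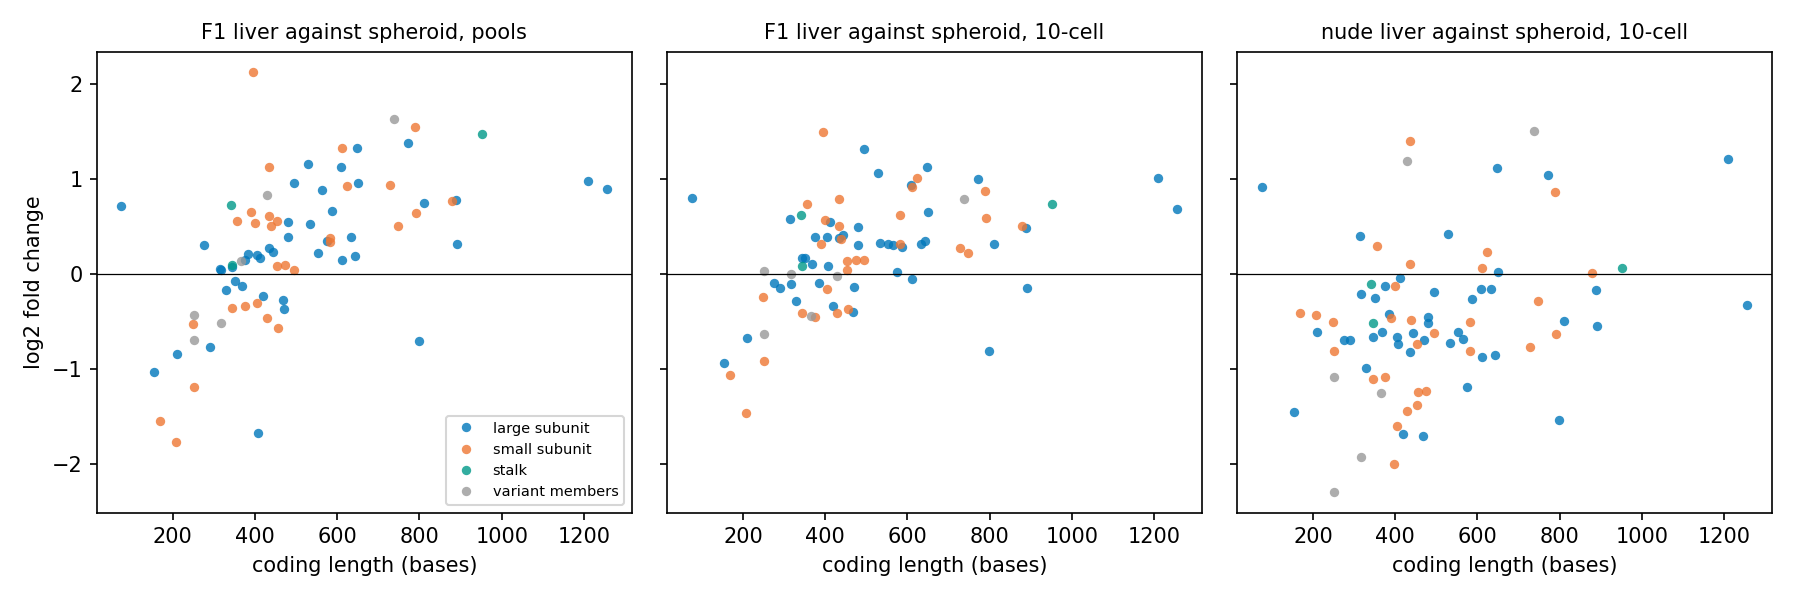
Coding length in bases (horizontal) against log2 fold change (vertical) of the tested members without Rpsa, coloured by subunit, for F1 liver over spheroid in pools and in 10-cell libraries and for nude liver over spheroid in 10-cell libraries. Rank correlations are 0.63, 0.49 and 0.26 in that order.

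Spread between libraries of the same group was smaller for the typical member than for the typical gene. Taken per library as the absolute distance of log2(CPM + 1) from its median in the group, it had a median over 81 members of 0.35 in both spheroid pools and 10-cell libraries, 0.47 and 0.46 in nude liver and 0.61 and 0.45 in F1 liver. It was larger in 10-cell libraries for 50, 37 and 14 of the 81 members in that order (61.7%, 45.7% and 17.3%), against 58.8%, 42.7% and 38.8% of all genes. The median difference between 10-cell libraries and pools in F1 liver was -0.12 for members and -0.16 for all genes. The median spread over all genes was 1.35 and 1.4, 1.47 and 1.45, and 1.66 and 1.56 in pools and 10-cell libraries of the same environments. Members and other genes were not compared at matched levels. In limma, 0 members had a larger spread in 10-cell libraries than in pools in spheroids, nude liver or F1 liver, where 0%, 0.564% and 0.537% of all genes did. At an unadjusted p under 0.05, 0 members did in any of them, where 3.87%, 6.16% and 4.87% of all genes did. A smaller spread in 10-cell libraries was called for 0, 0 and 1 members, against 0%, 0.213% and 0.948% of all genes, with 0, 4 and 8 members at an unadjusted p under 0.05, where 2.03%, 8.38% and 12.9% of all genes were. The 1 member was Rpl7l1 in F1 liver, with 1.29 in 10-cell libraries and 2.56 in pools (difference -1.27, SE 0.33, limma adjusted p = 0.0320).

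Genes that work with the ribosome were measured in the same edgeR fits, and their counts are to be read against the shares over all genes, 17.7% higher and 16.3% lower for nude liver and 7.73% and 4.91% for F1 liver over spheroid in 10-cell libraries. Of the 4 related ribosomal genes, 1 was higher and 2 were lower. Rps27a, a ubiquitin fusion, was lower in nude liver 10-cell libraries (mean 4258 against 8244 CPM, -1.20, SE 0.15, adjusted p = 4.34e-10), as was Rack1 (2937 against 3417 CPM, -0.41, SE 0.15, adjusted p = 0.0274), and Fau was higher (1247 against 609 CPM, 0.89, SE 0.20, adjusted p = 2.48e-04). Of 15 translation factors and other TOP genes, 4 were higher and 3 lower in nude liver 10-cell libraries, and those with the smallest p among the higher were the elongation factors Eef1d (1.41, SE 0.25, adjusted p = 4.10e-06) and Eef2 (1.11, SE 0.21, adjusted p = 2.55e-05). In F1 liver 5 were higher and 0 lower, among them Eef1a1 (0.99, SE 0.15, adjusted p = 1.32e-06), which was also higher in F1 than in nude liver (1.37, SE 0.20, adjusted p = 2.23e-07).

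Of 30 ribosome biogenesis genes, 8 were higher and 4 lower in nude liver 10-cell libraries, where 17.7% and 16.3% of all genes were. Ubtf, an RNA polymerase I factor, had mean levels of 110 and 12.5 CPM in nude liver and spheroid (3.29, SE 0.54, adjusted p = 1.08e-06) and Nop10, of the H/ACA particle, 92.0 and 264 CPM (-1.84, SE 0.39, adjusted p = 1.38e-04). Of 75 tested genes for the mitochondrial ribosome, a separate ribosome, 8 were higher and 26 lower there, with Mrpl28 (1.42, SE 0.26, adjusted p = 8.33e-06) and Mrps33 (-2.54, SE 0.32, adjusted p = 1.58e-09) having the smallest p in each direction. In pools 8 of 75 were higher and 4 lower, against 16.5% and 9.13% of all genes. Of 12 tested growth control genes, 1 was higher and 3 lower in nude liver, with Eif4ebp1, an mTOR target that represses translation, at a mean of 99.8 against 323 CPM (-1.85, SE 0.38, adjusted p = 7.70e-05).

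Between RPC and KP1, Mycl, the MYC family gene that is often amplified in small-cell lung cancer, had a mean of 0.198 CPM in RPC and 95.7 CPM in KP1 (edgeR adjusted p = 2.46e-15). Eif4ebp1 was also lower in RPC (-1.53, SE 0.26, adjusted p = 6.19e-06), and 4 of 13 growth control genes were lower and 0 higher, where 11.6% of all genes were lower and 10.3% higher. Rack1, a scaffold on the small subunit, was higher in RPC with a mean of 7502 against 3417 CPM (1.01, SE 0.16, adjusted p = 1.06e-06), and Rps27a was lower (-1.08, SE 0.21, adjusted p = 5.61e-05). Among 30 biogenesis genes 5 were higher, with the smallest p for Fbl, the methyltransferase of the box C/D particle (1.10, SE 0.28, adjusted p = 0.00258), and 1 was lower, the nucleolar chaperone Npm1 (-1.30, SE 0.26, adjusted p = 1.27e-04). Of 77 mitochondrial ribosome genes 4 were higher and 17 lower, against the same shares.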

How the data were processed

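The deposited values are expected counts per gene, estimated by the authors. RSEM, Bowtie2, GRCm38 and GRCh38.p12 are named in the submitters' processing notes, without roles. Per the labels' protocols, 10-cell and pool libraries came from laser capture microdissection of cryosections, poly(A) PCR and Nextera XT, and bulk libraries from column-purified RNA. Of the deposited expected counts 10.7% had decimals and were rounded here, and ERCC transcripts were left out of totals. Reads carry no molecular identifiers, so depth covers counting error only.

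Groups came from the labels. Each of 7 comparisons was fitted alone across all genes that passed filterByExpr, with edgeR 4.0.16 (TMM factors, robust quasi-likelihood test, R 4.3.3) and Benjamini-Hochberg adjustment, and a gene was called at an adjusted p under 0.05. Spread was compared with limma 3.58.1 on log2(CPM + 1), and the 5 scalings and tools were TMM, RLE, library totals, DESeq2 1.42.0 and limma-voom. Named genes were Rpsa and, in each direction, up to 3 members with the smallest adjusted p among those called with at least a 2-fold change, some of which are not reported here. Pseudogenes were matched at 90% identity or more over at least 50% of a coding sequence. Members, lists and tests were chosen with earlier results of these data known. The fitting steps were tested on simulated data.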

Additional observations from a re-analysis of the deposited data

How the results depend on the processing

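Across the alternatives run, 243 of the values that answer a comparison kept their direction and side of the threshold or stayed within 1.5 times, 46 counts moved further and 4 calls of Rpsa in RPC were lost. Of values for single named members 467 were kept, 44 lost their call and 1 reversed. The cause of these shifts was not tested. Counts below are members higher and lower, of 81.

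With the hepatocyte covariate, nude liver over spheroid gave 1 and 0 in 10-cell libraries (5 and 8 at an unadjusted p under 0.05 in edgeR) and 1 and 0 in pools, F1 liver over spheroid gave 1 lower in both kinds of library, and F1 over nude liver gave 1 lower in 10-cell libraries and 4 and 2 in pools. With library totals, F1 liver over spheroid gave 16 lower in 10-cell libraries and 7 and 21 in pools, F1 over nude liver 28 and 11 and, in pools, 9 and 18, RPC 18 higher and nude liver pools 29 lower. Against spheroids with at least 0.1% ERCC, F1 liver gave 2 and 2 in 10-cell libraries and 0 and 0 in pools (6 and 20 unadjusted), RPC 4 higher and nude liver pools 5 higher. Against the other spheroids, RPC gave 8 and 12, nude liver pools 28 and 13 and F1 pools 30 and 2. For these F1 pools the member median exceeded that of all genes by 0.23. F1 libraries with high Rpl19-ps11 gave 35 higher over spheroid and 1 lower against nude liver in 10-cell libraries. Those with low levels gave 0 and 21 and, against nude liver, 1 and 5, and in pools 9 higher over spheroid and 5 and 3 against nude liver. In pools RLE gave 13 and 31 in nude liver and 20 and 9 in F1 liver over spheroid. DESeq2 gave 13 and 33 in nude liver and 20 and 9 in F1 liver, and limma-voom gave 26 and 13 in F1 liver. The member median minus that of all genes was -0.29 and -0.17 with RLE and -0.02 and 0.26 in DESeq2. For F1 liver in limma-voom it was 1.67. Measured from the group mean, spread was called smaller in 10-cell libraries for 1 member in nude and 3 in F1 liver.

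Rpsa in RPC had log2 fold changes of 0.44 (edgeR adjusted p = 0.537) and 0.88 (0.0628) against spheroids with and without spike-in, 0.01 (0.982) in limma-voom and 0.04 (0.930) with the replicate block. Rps3a1 in RPC reversed to -0.39 when summed with pseudogenes. Library totals, pseudogenes matched by sequence and leaving out libraries over 20% ERCC were chosen after seeing the data.

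Replicate numbers are shared by groups but did not pair samples: the median correlation of same-numbered libraries was at most 0.01 in the 7 comparisons, and at most 2 libraries correlated best with their own number. With the replicate block, F1 liver over spheroid gave 24 higher and 2 lower in 10-cell libraries and F1 over nude liver pools 14 and 2. The member median exceeded that of all genes by 0.84 and 0.87 there.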
